A study of Mus musculus with 4 samples.

Results

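The 10 genes described here build the MHC class II route of antigen presentation: H2-Aa, H2-Ab1, H2-Eb1, Cd74, H2-DMa, H2-DMb1, H2-DMb2, H2-Oa, H2-Ob and Ciita. Every probe set whose symbol in the platform table is or includes one of these names was taken, which gave 8 of the 23309 probe sets on the array and covered 9 of the 10 genes, where the table names 19297 genes by a probe set of their own. One of the 8, probe set 10444236, carries both H2-DMb1 and H2-DMb2 and cannot separate them. No expression value of H2-Ob was analysed here, and its promoter window is described with the others.

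Class II molecules are pairs of an alpha and a beta chain that show peptides from engulfed or internalised protein to CD4+ T cells. In the spleen they are made mainly by B cells, dendritic cells and macrophages, under the control of the transactivator Ciita. B cell precursors carry little class II, and its amount rises as B cells mature.

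Spleens of 4 mice on the 129Sv strain background were measured, 1 mouse per array, on Affymetrix whole-transcript arrays. The 2 wild type mice were RBP-J flox/flox;Ren1d+/+ females of 80 and 81 days, with spleens of 0.12 and 0.16 g for replicates 1 and 2. The 2 leukaemic mice were RBP-J flox/flox;Ren1dcre/cre, a female of 107 days (replicate 1, spleen 0.7 g) and a male of 93 days (replicate 2, spleen 0.47 g). Floxed RBP-J, which encodes the nuclear partner of Notch receptors, was thus present in all 4 mice, and cre at Ren1d, a renin gene, in the leukaemic pair only. Cre driven from Ren1d acts in cells that express renin or descend from such cells. The leukaemic mice were also older and had heavier spleens, and these differences cannot be told apart from the disease.

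The label of B cell leukaemia was checked on marker genes. The 11 genes of B cell precursors had a median log2 difference of 2.79, with 0 of the 11 below 0. At a limma adjusted p under 0.05, 8 of the 11 were higher in leukaemic spleen, against 253 of all 23309 probe sets. Dntt, not among the 8, read 6.46 and 6.54 in wild type replicates 1 and 2. It read 6.51 in leukaemic replicate 1 and 8.05 in leukaemic replicate 2. Genes found in B cells at most stages had a median of -0.04 over 9 measured genes, with 5 of the 9 differences below 0. By adjusted p, Ebf1 was higher (1.11) and Cd22 lower (-0.84). Ms4a1 (-0.81) and Blk (-0.84) also had lower values, without passing. Wild type replicate 2 also held pancreas transcripts: the summed signal of 10 exocrine pancreas genes was 15.45 on the log2 scale there and between 10.23 and 10.29 in the other arrays. Values below are RMA expression on the log2 scale, "called" means a limma adjusted p under 0.05 over all 23309 probe sets, and SE is that of the moderated fit.

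Promoters of class II genes share short elements, known as the X and Y boxes, at which the factor complex that recruits Ciita assembles. Windows from 250 bases before to 50 bases after the annotated start were available from RefSeq (GRCm38.p6) for 7 of the 10 genes, 8 windows in all. The Y box core TGATTGG, or its reverse complement, stood in the windows of 6 of these 7 genes, against 7.82% of 32851 promoter windows genome-wide. X box letters, CNNATGATG on either strand, stood in 4 of the 7, against 2.75% of all windows. These motifs were settled after the windows had been read and other forms tried, so the shares describe these windows and test nothing.

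The stretch from 140 to 31 bases upstream of the start is shown for 5 genes with a probe set, to let the spacing of the boxes be read beside the expression values. Capitals mark TGATTGG, CNNATGATG and, in H2-Aa, the cyclic AMP element TGACGTCA.
H2-Aa, chr17:34287854-34287963, minus strand: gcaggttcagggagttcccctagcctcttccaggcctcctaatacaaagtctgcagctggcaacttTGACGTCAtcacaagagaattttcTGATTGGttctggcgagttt
H2-Eb1, chr17:34305727-34305836, plus strand: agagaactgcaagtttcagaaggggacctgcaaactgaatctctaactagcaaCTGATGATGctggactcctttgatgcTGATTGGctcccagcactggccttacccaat
H2-DMb1, chr17:34153051-34153160, plus strand: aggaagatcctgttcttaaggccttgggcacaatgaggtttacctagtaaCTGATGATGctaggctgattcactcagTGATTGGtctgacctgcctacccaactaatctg
H2-DMb2, chr17:34145109-34145218, plus strand: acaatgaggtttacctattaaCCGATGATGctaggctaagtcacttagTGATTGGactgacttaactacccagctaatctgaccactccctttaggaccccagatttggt
H2-Oa, chr17:34092239-34092348, plus strand: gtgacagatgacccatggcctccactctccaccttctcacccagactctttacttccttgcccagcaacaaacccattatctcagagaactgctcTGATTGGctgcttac

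In H2-DMb1 and H2-DMb2 the X letters began 27 bases before the Y core, in H2-Eb1 26 bases before it and in H2-Ob 24 bases before it. The distance of the Y core from the start ranged from 45 bases in H2-Oa to 92 bases in H2-DMb2. H2-Aa held TGACGTCA, found in 1.79% of all windows, in place of the X letters. H2-DMa had 2 windows, and neither held the Y core or the X letters. H2-Ab1, Cd74 and Ciita had no window in the table.

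All 8 probe sets had lower values in both leukaemic spleens than in either wild type spleen. The median log2 difference was -1.22, between -0.83 for H2-Aa and -1.58 for H2-Oa, against a median of -0.03 over all probe sets. In folds the spleens differed by 1.78 to 2.98 times. The 95% intervals of all 8 differences lay below 0 before adjustment for the number of probe sets; 9.84% of all probe sets were lower at an unadjusted p under 0.05.

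Of the 8 probe sets, 1 was called lower, that of H2-DMa, against a background of 0.592% of all probe sets called lower (138 of 23309, with 253 higher). After median centring that split was 106 lower and 332 higher, and after quantile normalization 13 and 75. The adjusted p of the other 7 lay between 0.059 and 0.10 in limma. When 1 row per gene with a single symbol was used as the family of tests, 4 of 7 were called lower against 1.16% of genes: H2-Ab1, H2-Eb1, H2-DMa and Ciita. With the fit on all single-symbol rows and 1 row per gene adjusted, it was 3 of 7 against 1.03%, H2-Eb1 being lost. Groups that do not overlap are common in a design of 2 against 2. Leukaemic arrays lay wholly below wild type arrays in 25.5% of all probe sets, and differences of -1 or lower occurred in 1.51% of all probe sets against 6 of the 8.

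**Figure D1:**
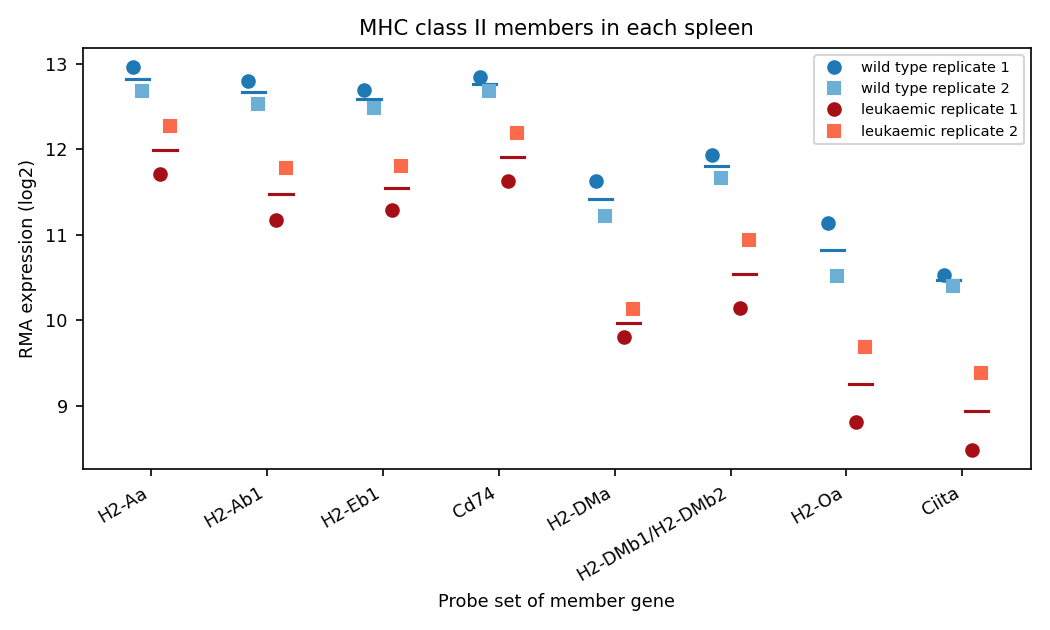
RMA expression (log2, vertical axis) of the 8 member probe sets in each of the 4 spleens, with bars at the mean of the 2 mice of a group. In every probe set both leukaemic spleens sit below both wild type spleens, and leukaemic replicate 1 is the lowest of the 4.

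The classical chains form the peptide-binding molecules at the cell surface. H2-Aa, the alpha chain of I-A, gave 12.96 and 12.68 in wild type replicates 1 and 2, against 11.71 and 12.27 in leukaemic replicates 1 and 2, the order kept for all genes below. Leukaemic replicate 2 lay 0.41 below the nearer wild type spleen, the narrowest gap among the members. The log2 difference of -0.83 (SE 0.22, 95% interval -1.36 to -0.31) had a limma adjusted p of 0.10.

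H2-Ab1, the beta chain that pairs with H2-Aa, gave 12.80 and 12.53 in the wild type pair against 11.17 and 11.78 in the leukaemic pair. The groups were 0.76 apart at their nearest arrays, and the log2 difference was -1.19 (SE 0.23, limma adjusted p = 0.060). Relative to H2-Aa in the same array, H2-Ab1 was therefore further down in leukaemic spleen. H2-Aa minus H2-Ab1 was higher by 0.39 and 0.34 in leukaemic replicates 1 and 2 than its wild type mean, while the wild type arrays lay within 0.01 of that mean. With 2 against 2 mice the smallest p that a two-sided exact permutation test can give is 0.333, so such differences between members are given as values with no test.

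H2-Eb1, the beta chain of I-E, gave 12.69 and 12.49 in the wild type pair against 11.29 and 11.80 in the leukaemic pair, again with leukaemic replicate 1 lowest. Its log2 difference was -1.05 (SE 0.20, limma adjusted p = 0.062). Cd74, the invariant chain that escorts new class II molecules to the endosome and blocks their groove, read 12.85 and 12.68 in wild type. In leukaemic replicates 1 and 2 it read 11.63 and 12.19, a log2 difference of -0.85 (SE 0.21, limma adjusted p = 0.093). Cd74 followed H2-Aa closely: the difference between these probe sets was -0.02 apart between groups, less than its spread between the wild type arrays (SD 0.08, n = 2).

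These 4 probe sets lay near the top of the value range. In both wild type arrays all 4 stood at or above the 99th percentile of the array, where the highest value of any probe set was 13.68. Whether signals this high record a change in full was not tested.

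The peptide editors work in the endosome. H2-DMa and H2-DMb chains form H2-M, which removes the Cd74 fragment from the groove and favours stable peptides, and H2-O restrains H2-M. H2-DMa gave 11.62 and 11.22 in the wild type pair against 9.81 and 10.14 in the leukaemic pair. The leukaemic replicates were 0.33 apart, the smallest spread between leukaemic mice among the 8 probe sets, and the nearest arrays of the groups were 1.08 apart. H2-DMa fell 2.73-fold, a log2 difference of -1.45 (SE 0.20, 95% interval -1.92 to -0.98, limma adjusted p = 0.032). Over 12 alternative fits this adjusted p ranged from 2.4e-05 to 0.20 and the difference from -1.65 to -1.25. The call was lost after quantile normalization, with treat at a minimum log2 difference of 0.5, and without wild type replicate 1 or wild type replicate 2. In the fits without these mice the smallest limma adjusted p of any member was 0.15 and 0.18.

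The shared H2-DMb1 and H2-DMb2 probe set gave 11.94 and 11.66 in the wild type pair against 10.14 and 10.94 in the leukaemic pair. Its log2 difference was -1.26 (SE 0.27, limma adjusted p = 0.075), with leukaemic replicate 2 standing 0.80 above replicate 1. It could therefore not be told whether both H2-DMb genes or 1 of them had the lower value.

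H2-Oa, the alpha chain of H2-O, gave 11.14 and 10.52 in the wild type pair against 8.82 and 9.69 in the leukaemic pair. The difference of -1.58 was the largest among the members, but so was its error (SE 0.32, limma adjusted p = 0.071), and the wild type mice differed by 0.62. H2-Oa minus H2-DMa differed by -0.13 between groups, and the arrays of the groups overlapped in it.

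Ciita, which does not bind DNA itself but is recruited to class II promoters and switches them on, read 10.53 and 10.40 in wild type. In leukaemic replicates 1 and 2 it read 8.49 and 9.39, so the leukaemic mice differed by 0.90, the widest such gap among the members. Its log2 difference was -1.53 (SE 0.29, 95% interval -2.22 to -0.84, limma adjusted p = 0.059). Ciita was lower relative to Cd74 by 0.85 and 0.51 in leukaemic replicates 1 and 2, against 0.02 either side of the mean in wild type. H2-DMa was likewise lower relative to H2-Aa, by 0.50 and 0.73. Ciita and the editors H2-DMa and H2-Oa thus had the largest differences, and H2-Aa and Cd74, among the brightest probe sets, the smallest.

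The members also shared their order across single mice. All 8 were highest in wild type replicate 1, then wild type replicate 2, leukaemic replicate 2 and leukaemic replicate 1, an order found in 7.93% of all probe sets. Measured from the wild type mean, their median stood at -1.56 in leukaemic replicate 1 and at -0.87 in its partner. Leukaemic replicate 1 was the mouse with the heavier spleen of 0.7 g, and replicate 2 was the male. Of the 5204 probe sets with a mean at or above the lowest member mean, 3754 were higher in wild type replicate 1 than in replicate 2. The median of that difference was 0.12. Wild type replicate 2, the array with pancreas transcripts, was below replicate 1 by 0.13 to 0.62 in the 8 probe sets. Without that array the median member difference was -1.36 and limma called 0 of 8 members, all 8 at an unadjusted p under 0.05. That fit called 0 probe sets on the whole array, with 3698 at an unadjusted p under 0.05.

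Among single-symbol genes outside the lists, the 5 with a 4-array profile nearest to the members' median profile were Tagap, Camp, Rasgrp3, Rubcnl and Cd247. Their root mean square distances from it were 0.020 to 0.041 on the log2 scale, over 4 arrays and 13551 candidate genes. H2-Ab1 itself lay at 0.012 and H2-Oa at 0.24. Camp is a neutrophil granule peptide and Cd247 the zeta chain of the T cell receptor complex, so a profile of 4 arrays this close was also found in genes of other cell types.

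The class II genes of the mouse lie together on chromosome 17, apart from Ciita on chromosome 16 and Cd74 on chromosome 18. The gene table places 6 other genes between the outermost members, and 5 were measured. None of the 5 was called in limma (0 of 5, with 2 at an unadjusted p under 0.05). Brd2, a bromodomain gene, differed by -0.08 (95% interval -0.40 to 0.23). The immunoproteasome genes Psmb8 and Psmb9, which cut proteins for class I presentation, differed by -0.10 (-0.57 to 0.36) and -0.18 (-0.64 to 0.28). Tap1 and Tap2, which pump peptides to class I molecules, differed by -0.48 (-0.92 to -0.05) and -0.44 (-0.80 to -0.08). The 95% intervals of Brd2, Psmb8 and Psmb9 thus reached above 0, while those of Tap1, Tap2 and the class II members around them did not.

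Beyond H2-Eb1 lie H2-Eb2 and H2-Ea, class II genes that are not members. H2-Eb2, a further beta chain gene, gave 11.50 and 11.06 in the wild type pair against 9.42 and 10.39 in the leukaemic pair. Its log2 difference of -1.38 (SE 0.32, limma adjusted p = 0.085) was close to those of the members. H2-Ea, the alpha chain that pairs with H2-Eb1, read 5.36 to 5.51 in all 4 arrays, below 6.75, the 95th percentile of 1032 olfactory receptor probe sets that served as a background level. Mouse strains of the b haplotype do not transcribe H2-Ea, and the haplotype of these mice is not in the labels.

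**Figure D2:**
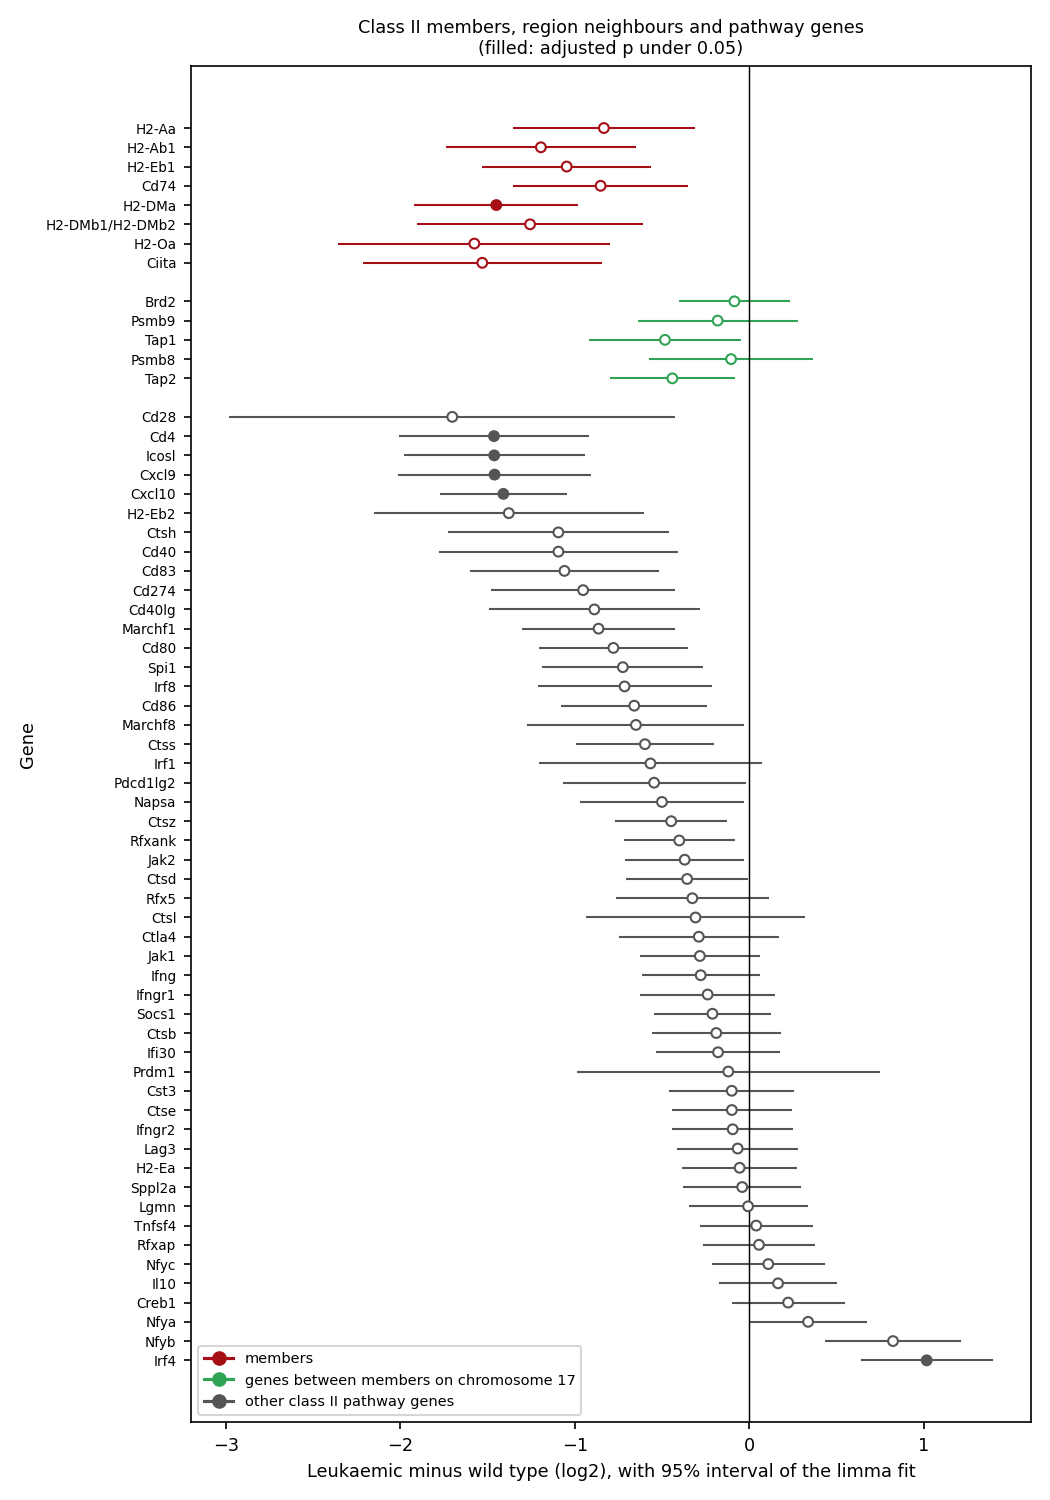
Log2 difference of leukaemic minus wild type spleens (horizontal axis) with its 95% interval from the limma fit, for the members, the 5 measured genes between them on chromosome 17 and the 50 measured genes of the wider pathway. Filled points have an adjusted p under 0.05. The intervals of the members and of Tap1 and Tap2 lie below 0, while those of Brd2, Psmb8 and Psmb9 cross it.

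The wider pathway was followed in 7 lists naming 53 genes, of which 50 were measured. In limma 4 fell, 1 rose and 45 did not pass, which is 10% called against 1.68% of all probe sets. The median difference over the 50 was -0.34, and 42 of them lay below 0. At an unadjusted p under 0.05 in limma stood 27 of the 50, against 4609 of 23309 probe sets.

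Among factors of the class II promoter 1 gene rose and none was called lower. RFX and NF-Y are the complexes that occupy the X and Y boxes. Of 12 measured factor genes, with 6 at an unadjusted p under 0.05, the one that rose was Irf4, a transcription factor of activated and precursor B cells, from 9.95 and 9.85 to 10.77 and 11.07, a log2 difference of 1.02 (SE 0.16, limma adjusted p = 0.042). Nfyb, a subunit of NF-Y, had higher values without passing (0.82, SE 0.16, limma adjusted p = 0.065). Spi1 (-0.72) and Irf8 (-0.71), named after their values were seen, had lower values without passing (limma adjusted p = 0.11 and 0.13). Of the 12 differences, 6 lay below 0. The RFX subunit genes Rfx5, Rfxank and Rfxap, named after their values were seen, differed by -0.33, -0.40 and 0.06, with limma adjusted p between 0.17 and 0.90. The 95% interval was -0.76 to 0.11 for Rfx5 and -0.72 to -0.08 for Rfxank, and no test compared these genes with Ciita.

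Endosomal proteases and helpers supply the peptides. None of 12 was called in limma (0 of 12, with 5 at an unadjusted p under 0.05), the values were lower in all 12, and the median was -0.25. Ctsh and Ctss, cathepsins of which Ctss trims the invariant chain in B cells and dendritic cells, differed by -1.09 (SE 0.26) and -0.60 (SE 0.16), with limma adjusted p of 0.089 and 0.12. Sppl2a, which clears the last Cd74 fragment from the membrane, differed by -0.04 (95% interval -0.38 to 0.30) and is named here after its value was seen. Cd74 itself differed by -0.85.

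Of 4 genes that set the life of class II at the surface, limma called 0, with 3 at an unadjusted p under 0.05: Marchf1, Marchf8 (named after its value was seen) and Cd83, all with lower values in leukaemic spleen. Il10, named after its value was seen, lay below the background level in all 4 arrays and differed by 0.17. Marchf1, a ubiquitin ligase that sends class II to degradation, gave 9.60 and 9.46 in the wild type pair against 8.45 and 8.88 in the leukaemic pair (-0.86, SE 0.18, limma adjusted p = 0.073). Cd83, which protects class II from that ligase, differed by -1.06 (SE 0.23, limma adjusted p = 0.074). The ligase and its antagonist thus both had lower values, as the chains did.

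Of 7 costimulatory genes 1 was called lower in limma, with 6 at an unadjusted p under 0.05. The called gene was Icosl, the ligand of the T cell receptor ICOS. It went from 10.65 and 10.30 to 8.76 and 9.27, a log2 difference of -1.46 (SE 0.22, limma adjusted p = 0.038). Cd80 had values lower by 0.78 (SE 0.18, limma adjusted p = 0.082). Cd40, named after its value was seen, differed by -1.09 (SE 0.29, limma adjusted p = 0.10). On the T cell side 1 of 5 genes was called lower in limma, with 3 at an unadjusted p under 0.05. The called gene was Cd4, the coreceptor that binds class II, from 10.65 and 10.03 to 8.76 and 9.00 (-1.46, SE 0.23, limma adjusted p = 0.042). Cd28, named after its value was seen, differed by -1.70 (SE 0.53, limma adjusted p = 0.15). Cd40lg, the ligand of CD40, differed by -0.89 (SE 0.25, limma adjusted p = 0.13) and lay near background, with array values from 5.91 to 7.32.

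Interferon gamma is the main inducer of Ciita outside B cells and dendritic cells. Of 8 genes of this axis 2 were called lower in limma, with 3 at an unadjusted p under 0.05. The 2 were the inducible chemokine genes Cxcl10 (-1.41, SE 0.15, limma adjusted p = 0.019) and Cxcl9 (-1.46, SE 0.23, limma adjusted p = 0.043). Ifng gave 6.98 and 7.02 in the wild type pair against 6.64 and 6.81 in the leukaemic pair, close to the background level, and its receptor and kinase genes differed by -0.09 to -0.37; these genes are named after their values were seen.

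Cells that make class II were compared through their marker genes, given beside the member median of -1.22. Whole spleen was measured, so fewer cells of a type and less RNA per cell cannot be told apart, and the part of each cell type in the member differences was not tested. Over all probe sets, 0.592% were called lower and 9.84% were lower at an unadjusted p under 0.05 in limma. Genes of conventional dendritic cells were called lower in 3 of 9 cases (7 at an unadjusted p under 0.05), with values lower in all 9. Their median was -0.98, with 1 of 9 at background. Their summed signal on the log2 scale was 11.90 to 12.23 in wild type and 11.00 to 11.04 in leukaemic spleens. Genes of plasmacytoid dendritic cells were called lower in 4 of 5 cases (5 at an unadjusted p under 0.05), with a median of -2.02. Their summed signals were 11.34 to 11.85 and 10.11 to 10.16 in the same order. Macrophage genes were called lower in 0 of 14 cases in limma (10 at an unadjusted p under 0.05), with 13 of the 14 differences below 0. Their median was -0.49, with summed signals of 14.86 to 15.11 and 14.46 to 14.47.

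Genes of mature B cells were called lower in 3 of 7 cases in limma (7 at an unadjusted p under 0.05), with a median of -1.30. Their summed signals were 14.11 to 14.44 in wild type and 12.73 to 13.29 in leukaemic spleens. Precursor B cell genes had summed signals of 12.28 to 12.54 and 14.78 to 14.79. Mature B cell genes had medians of -1.66 and -0.94 in leukaemic replicates 1 and 2. T cell genes had -1.85 and -1.17, with 3 of 8 called lower (8 at an unadjusted p under 0.05). Mouse T cells make little class II of their own. Conventional dendritic cell genes had -0.88 and -1.05, and the members -1.56 and -0.87. Plasma cells switch class II off. Of 7 genes of that list 1 was called higher, Irf4, while 5 differences lay below 0 and the median was -0.34.

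**Figure D3:**
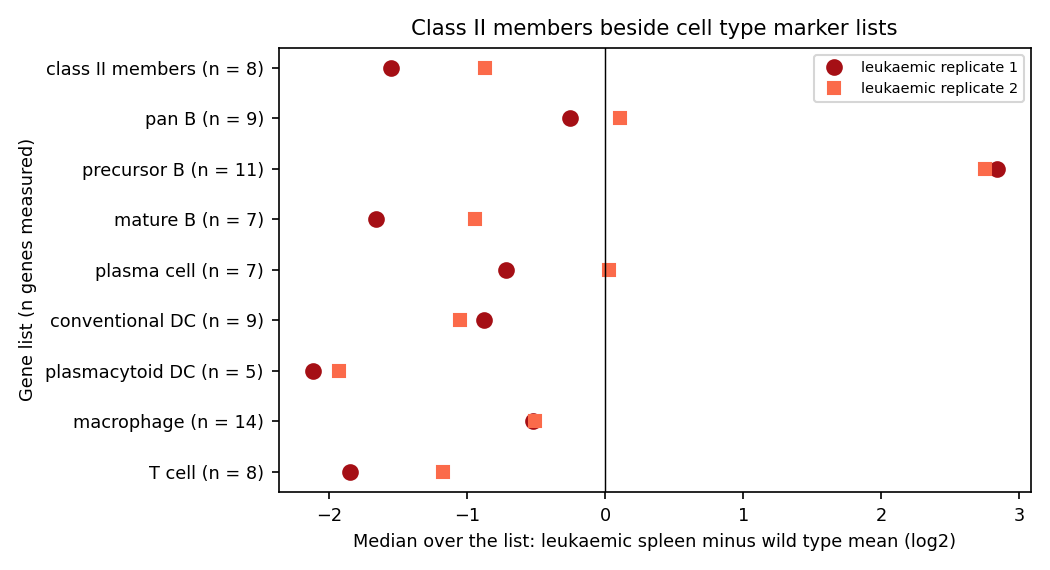
Median over each gene list of the value in leukaemic replicate 1 or 2 minus the wild type mean (log2, horizontal axis), for the class II members and 8 cell type lists. The members sit at -1.56 and -0.87, mature B cell genes at -1.66 and -0.94, and pan B genes at -0.26 and 0.10. T cell genes sit at -1.85 and -1.17, and conventional dendritic cell genes at -0.88 and -1.05.

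The pan B list asks how class II compared with genes found in B cells at most stages. Single genes of the list shifted in both directions, from -0.84 for Cd22 to 1.11 for Ebf1. The mean of the 9 measured genes of the list was 11.73 and 11.52 in the wild type pair. It was 11.41 and 11.63 in the leukaemic pair, so the groups overlapped. Subtracting that mean in each array left all 8 member probe sets lower in leukaemic spleens with no overlap. The median difference was -1.12, from -0.73 for H2-Aa to -1.47 for H2-Oa. H2-DMa, for example, stood 0.11 and 0.30 below the pan B mean in wild type and 1.60 and 1.49 below it in leukaemic spleens. Relative to the mature B list the member differences centred on 0.07, with 3 of 8 below 0. Without overlap, H2-Aa (0.46), Cd74 (0.44), H2-Eb1 (0.25) and H2-Ab1 (0.10) were higher and H2-Oa (-0.28) was lower. The groups overlapped in H2-DMa, the shared H2-DMb probe set and Ciita. Relative to macrophage genes they centred on -0.69, with all 8 again lower without overlap. The same held relative to precursor B genes, which were themselves higher in leukaemic spleens, with a median of -3.92. Relative to conventional dendritic cell genes they centred on -0.25, with 6 of 8 below 0 and 2 of 8 lower without overlap. Relative to plasmacytoid dendritic cell genes they centred on 0.47, with 0 of 8 below 0. Dendritic cells and macrophages add to the class II signal of a spleen, while the pan B list was chosen for B cells. What these cells contributed to the differences relative to the pan B list was not tested.

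**Figure D4:**
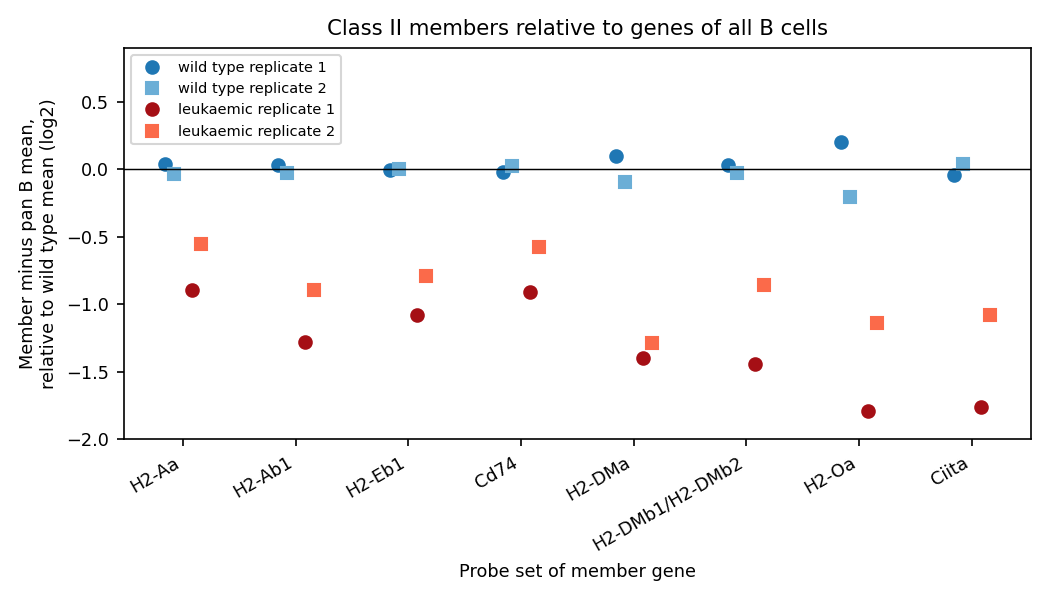
Each member's value minus the mean of 9 pan B genes in the same array, shown relative to the wild type mean of that quantity (log2, vertical axis). All leukaemic points lie below all wild type points of the same gene, and the median difference is -1.12.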

How the data were processed

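Values are log2 expression summaries as deposited by the authors, with 1 value for each probe set in each array. The submitters' processing notes name RMA, R 2.15.0 and limma 3.12.1, with settings, genome build and scan batches not given in the sources used here. RMA equalises intensity distributions between arrays, so values are relative within this set of 4 arrays, whose number limits the precision. Groups came from the sample titles. Replicates are individual mice, per the series' design text.

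The contrast of leukaemic minus wild type was fitted in limma 3.58.1 (R 4.3.3; functions lmFit and eBayes, no covariate, 2 residual and 4.52 prior degrees of freedom) on all 23309 probe sets, with Benjamini-Hochberg adjustment over all of them. No filter on dim probe sets was set. Symbols came from the platform table: 20729 probe sets had 1 symbol, 1174 several and 1406 none. Outside the members, a gene was represented by its single-symbol probe set of highest mean. Pathway genes named are those called plus up to 2 per list of smallest p; exceptions are marked. The scripts were tested on simulated data. Members and lists were chosen with earlier results of these data known. Alternatives covered centring, quantile normalization, a dim filter, the variance prior, the row set, a minimum fold (treat), the replicate number as a block and each mouse left out; a further row set was added after the data were seen. Motifs were searched in Python 3.11.15.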

Additional observations from a re-analysis of the deposited data

How the results depend on the processing

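All 8 member differences stayed below 0 under every alternative that held the probe set, and the median member difference ranged from -1.56 to -0.87 over the mice left out. The count of members called was 1, and 0 after quantile normalization (8 at an unadjusted p under 0.05) or with treat at 0.5 (6). It was 3 with a trend in the variance prior, where 168 probe sets were called lower against 138 in the main fit. It was 4 with single-symbol genes as the family (223 of 19297 genes called lower). With single-symbol rows fitted before 1 row per gene was adjusted, it was 3 (199 of 19297). With the replicate number as a block it was 8, in a fit that called 825 of 23309 probe sets lower. The numbers only name the mice, and the deviations of same-numbered mice had a correlation of -0.080 over all probe sets. With a mouse left out the count called varied, both for the members and over all probe sets, and the H2-DMa call was lost without either wild type mouse. The median member difference was -1.09 and -1.36 without wild type replicates 1 and 2. Without leukaemic replicates 1 and 2 it was -0.87 and -1.56. These fits have 1 residual degree of freedom, take the lone mouse to vary like the other group, and have 2.61 prior degrees of freedom without a wild type mouse and infinite ones without a leukaemic mouse. Of the other pathway genes 5 were called, 1 after quantile normalization, 0 with treat (13 at an unadjusted p under 0.05), 15 with the block and 0 to 15 with a mouse left out (15 and 23 at an unadjusted p under 0.05 without wild type replicates 1 and 2). None of the 5 genes between the members was called in any of the fits. Relative to pan B genes the member median ranged from -1.34 to -0.88 with a mouse left out and was -1.05 without Ebf1 and Cd22.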
